A study of Mus musculus with 9 samples.

Results

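Lymphatic endothelial identity is held by a small set of transcription factors, and 9 of them were followed here in meningeal lymphatic endothelial cells (MLECs), namely Prox1, Nr2f2, Sox18, Gata2, Foxc1, Foxc2, Nfatc1, Hhex and Tbx1. They were chosen by gene symbol for their known roles, at a time when earlier results of these data were known, and they are 9 of the 24321 genes listed for each library. MLECs came from the dural meninges of male mice of 10 weeks, in 3 groups with 3 RNA-seq libraries each. Control mice received PBS, and the other mice received GL261 glioma cells about 3 weeks or B16 melanoma cells about 2 weeks before collection. GL261 and B16 are mouse tumor lines, and no group carried a transgene or a deleted gene according to the labels. The labels place the injection in the cisterna magna, whereas the methods describe an injection under the dura. The sources also differ on the sorting marker, which is LYVE-1 in the labels and PDPN in the results text of the study. Each library was made by a Smart-seq2 procedure from 10 sorted cells, taken, according to the labels, after staining for CD31, CD45 and LYVE-1 from the pooled meninges of 6 mice, and replicates are thus separate pools of animals. GL261 and B16 libraries were joined as tumor-associated MLECs for the main comparison, as was done in the study. In it 6 libraries were set against 3.

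Lymphatic endothelial cells arise from venous endothelium when SOX18 and NR2F2 (COUP-TFII) switch on Prox1, the master regulator of lymphatic fate. PROX1 must stay present for the fate to be kept, and it maintains transcription of the VEGF-C receptor gene Flt4 in a feedback loop. HHEX acts upstream in the same circuit, and TBX1 promotes Flt4 transcription. GATA2, FOXC2, FOXC1 and NFATC1 are best known for the formation of lymphatic valves, where GATA2 raises Prox1 and Foxc2 under oscillating flow and NFATC1, activated by calcineurin, works together with FOXC2.

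The sequences just before the start sites of Prox1, Nr2f2 and Gata2 are given, since Gata2 was called, Prox1 came closest to the threshold among the others, and Nr2f2 acts directly upstream of Prox1, and since short binding words of the families to which several of the factors belong can be looked for in them. The 250 bases before each start site were taken from RefSeq (table built on GRCm38.p6) for 6 members, with 9 start sites in all. They were found unchanged in NCBIM37 (mm9), the build of the deposited values. No window was taken for Sox18, Foxc2 and Nfatc1, and for Nfatc1 this does not show that an entry was lacking. Positions are those in NCBIM37. Capitals mark the binding words searched for on both strands, which were ACAAT for SOX factors, GATAA for zinc finger factors like Gata2, TAAACA for forkhead factors, GGAAA for NFAT proteins and AGGTCA for nuclear receptors. The upstream Prox1 start, chr1:191994707-191994956 on the minus strand, lies outside the annotated gene, and the downstream Prox1 start, chr1:191993395-191993644, lies in an intron.
Prox1, upstream start: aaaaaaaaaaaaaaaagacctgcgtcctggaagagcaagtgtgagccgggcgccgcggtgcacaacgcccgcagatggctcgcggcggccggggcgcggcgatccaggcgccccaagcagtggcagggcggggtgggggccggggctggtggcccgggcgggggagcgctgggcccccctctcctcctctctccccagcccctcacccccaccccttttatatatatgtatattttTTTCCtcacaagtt
Prox1, downstream start: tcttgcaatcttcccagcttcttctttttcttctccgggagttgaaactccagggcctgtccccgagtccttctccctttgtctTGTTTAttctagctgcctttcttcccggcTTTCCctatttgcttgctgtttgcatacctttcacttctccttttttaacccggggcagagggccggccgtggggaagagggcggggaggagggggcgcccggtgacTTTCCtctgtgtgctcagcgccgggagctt
Nr2f2, chr7:77511633-77511882, minus strand, before the gene: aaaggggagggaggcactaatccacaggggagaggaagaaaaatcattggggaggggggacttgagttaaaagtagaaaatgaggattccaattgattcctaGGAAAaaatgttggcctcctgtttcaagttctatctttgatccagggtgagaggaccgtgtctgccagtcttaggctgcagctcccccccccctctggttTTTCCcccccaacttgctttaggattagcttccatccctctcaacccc
Gata2, chr6:88143635-88143884, plus strand, before the gene: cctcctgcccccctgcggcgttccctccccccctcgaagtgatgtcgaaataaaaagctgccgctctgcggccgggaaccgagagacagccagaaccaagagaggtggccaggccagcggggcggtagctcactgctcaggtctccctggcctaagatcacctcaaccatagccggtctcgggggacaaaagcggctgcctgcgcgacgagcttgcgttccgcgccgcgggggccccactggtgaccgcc
The NFAT word stood 14 bases before the upstream Prox1 start, and 137 and 30 bases before the downstream start, where the forkhead word stood 166 bases before the start. Nr2f2 held the NFAT word 148 and 48 bases before its start. The printed window of Gata2 held none of the words, nor did that before its downstream start, which is not printed. The NFAT word is common, being present in 55.566% of all 32851 windows of this length in the table, against 12.03% for the forkhead word, 27.658% for the SOX word, 22.581% for the GATA word and 14.024% for the nuclear receptor word. These matches describe letters only, and binding was not measured.

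The depth of the libraries differed between the groups. FPKM values of weakly expressed genes stepped in multiples of 1 read fragment, from which 1140000 to 1810000 fragments per library were estimated for control MLECs, 4150000 to 7590000 for GL261 and 1910000 to 4270000 for B16. Between 7303 and 8688 genes were above 0 in control libraries and between 8736 and 10852 in tumor-associated libraries. Tbp, a gene in use in all cells, had a value of 0 in 2 control libraries. For this reason a 0 is reported as a listed 0 and not as absence. Of 12 genes used in every cell, 3 were called higher in the tumor-associated group and 0 lower (limma). These were Tbp (difference 3.44 on the log2 scale, adjusted p = 0.0101), Gapdh (1.21, adjusted p = 0.00673) and Actb (0.74, adjusted p = 0.0181). Of 12 lymphatic and pan-endothelial markers none was at 0 throughout a group. Their summed FPKM ranged from 10769 to 17153 among control libraries. It ranged from 1447 to 3417 among GL261 libraries and from 2706 to 7228 among B16 libraries. Most of each control sum was Ccl21c alone, at 7384, 13803 and 9750 FPKM, and its tumor-associated values lay between 142 and 4187. The sums therefore do not stand for the markers as a set. Of the 11 tested, 4 were called lower, Ccl21c among them, and 0 higher (limma), and 2 had a difference above 0. Of 16 markers of blood endothelium 14 were tested, with 11 called higher in the tumor-associated group and 0 called lower (limma). Over all 16 the summed FPKM was 2358 to 3329 for control libraries, 8401 to 16414 for GL261 libraries and 6969 to 9113 for B16 libraries. Ly6c1 and Aplnr were at 0 in all control libraries, and Mfsd2a and Gja5 were at 0 in all 9 libraries. The part of these markers and of depth in the differences below was not tested, except where a value is given. Ptprc, Adgre1 and Cd3e (leukocytes), Mlana, Tyr, Tyrp1 and Mitf (melanocytes) and Gfap, Sox2 and Snap25 (glia and neurons) were at 0 in all 9 libraries, but other members of these lists were not. The 10 leukocyte markers summed to 55.1 to 274 FPKM in control, 55.9 to 1311 in GL261 (with 961 FPKM of Cd74 in GL261 replicate 2) and 25.999 to 83.7 in B16, the 7 melanocyte markers to at most 4.07 in any library, and the 8 glial and neuronal markers to at most 0.472 in control, 9.57 to 23.8 in GL261 and at most 25.4 in B16. Fibroblast and mural markers summed to 16.2 to 1172 in control and 0.146 to 11.4 in tumor-associated libraries. The highest sum was that of control replicate 1, with 505 FPKM of Acta2 and 641 FPKM of Tagln. Dcn had 15.7 to 44.9 FPKM in control and at most 0.146 in tumor-associated libraries, and was called lower (adjusted p = 0.00110, limma). In such pools, fewer cells of a type and less RNA per cell cannot be told apart.

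All 9 factors passed the filter (FPKM of 1 or more in 3 or more libraries), as did 9955 genes in all. Differences were tested with limma (with a trend of spread against level) on log2(FPKM + 1) with Benjamini-Hochberg adjustment over these genes, and a gene was called at an adjusted p under 0.05. Between tumor-associated and control MLECs, Gata2 was called higher and no factor was called lower, against 3.93% of all tested genes called (2.90% higher and 1.02% lower). At an unadjusted p under 0.05, 5 of the 9 factors passed, as did 1889 of all tested genes. Every tumor-associated library lay below every control library for Prox1, Nr2f2 and Nfatc1 and above every control library for Gata2, where 4.44% of tested genes were so separated downward and 6.08% upward. A ROC power over 0.4, a measure used for marker genes, was reached by 7 of the 9 factors. It was reached by 42.1% of the 13553 genes above 0 in any library, a wider set than the tested genes. The 9 differences had a median of 0.05 on the log2 scale, 5 of them above 0, beside a median of 0.20 over all tested genes. That median became 0.05 after rescaling each library to the same sum and -0.04 after quantile normalization.

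**Figure D1:**
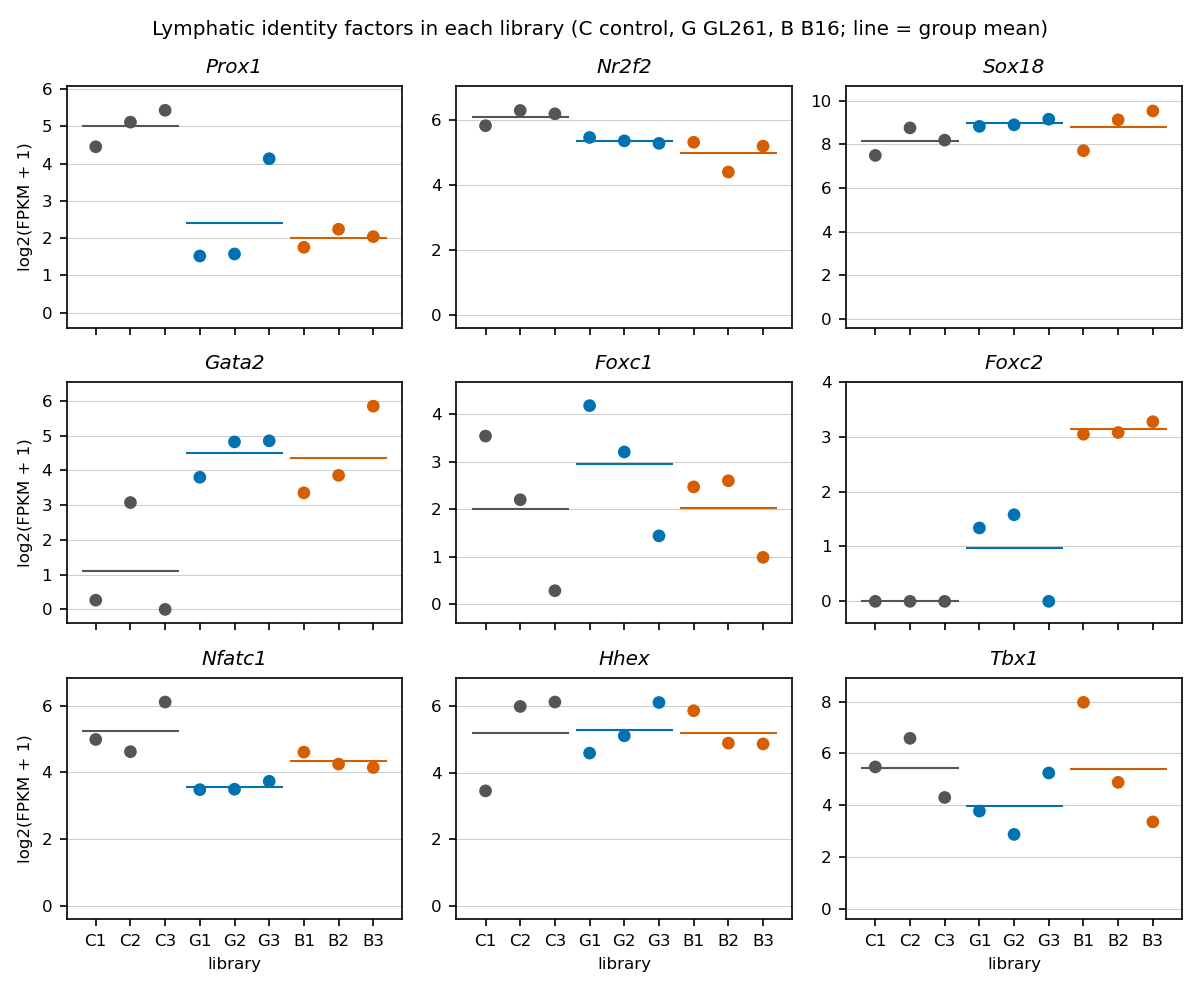
FPKM of each factor in each library as log2(FPKM + 1), with control (C), GL261 (G) and B16 (B) libraries as points and the group mean as a line. All tumor-associated points lie below all control points for Prox1, Nr2f2 and Nfatc1 and above them for Gata2, Foxc2 is at 0 in the 3 control libraries and 1 GL261 library, and the groups overlap for the other 4 factors.

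For Prox1 the 3 control libraries gave 20.9, 33.7 and 42.2 FPKM, with 1.87, 1.98 and 16.5 FPKM in GL261 and 2.37, 3.72 and 3.12 FPKM in B16. The groups did not overlap, and 5 of the 6 tumor-associated libraries were at or below 3.72 FPKM, while GL261 replicate 3 stood apart at 16.5. The mean was 32.3 ± 10.7 FPKM (SD, n = 3) in control MLECs, 6.80 ± 8.44 (n = 3) in GL261 and 3.07 ± 0.67 (n = 3) in B16. The difference on the log2(FPKM + 1) scale was -2.79 with a standard error of 0.73 and an adjusted p of 0.0509 (limma), which narrowly missed the threshold. Without GL261 replicate 3 it was -3.18 with an adjusted p of 0.0215, and the other leave-one-out values did not pass, up to an adjusted p of 0.137. Prox1 also passed after rescaling (adjusted p = 0.0480), after quantile normalization (0.0485), without a trend in limma (0.0420) and among genes with a mean FPKM of at least 10 (0.0488). It did not pass with a pseudocount of 0.1 (adjusted p = 0.0701) or without the filter (0.0744). With genes above 0 or aligned reads as a covariate the difference was -2.39 in both fits, with adjusted p of 0.506 and 0.531. Prox1 was called in 5 of 18 alternative fits.

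An estimated 133, 252 and 198 fragments stood behind the control values, and 54.7, 62.0 and 284 fragments behind those of GL261, where each library was deeper than each control library. In B16 18.7, 54.8 and 54.9 fragments were estimated. Prox1 lies at chr1:191945660-191994559 on the minus strand (NCBIM37, 5 exons) and overlaps the noncoding gene Gm17566, whose reads cannot be told apart from it if strand was not used. For single tumors the difference was -2.59 in GL261 (adjusted p = 0.138) and -2.99 in B16 (adjusted p = 0.107). With genes above 0 as a covariate these became -1.29 (adjusted p = 0.8805) and -2.28 (adjusted p = 0.522), and with aligned reads -0.70 (adjusted p = 0.957) and -1.995 (adjusted p = 0.635), in the same order.

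Nr2f2, the nuclear receptor of venous and lymphatic endothelium (chr7:77496832-77511621), had 56.1, 78.1 and 72.7 FPKM in control MLECs, 43.4, 40.3 and 38.1 in GL261 and 39.1, 20.2 and 35.8 in B16. Every tumor-associated library lay below every control library, and B16 replicate 2 was the lowest. The difference was -0.94 on the log2 scale (standard error 0.40, 95% interval -1.80 to -0.08), with an adjusted p of 0.224 in limma. It ranged from -1.08 to -0.78 when 1 library was left out. The level of Prox1 per unit of Nr2f2, both in FPKM, was 0.373, 0.431 and 0.581 in control MLECs, 0.0431, 0.0491 and 0.434 in GL261 and 0.0608, 0.184 and 0.0869 in B16. GL261 replicate 3 lay inside the control range, and the other 5 tumor-associated libraries lay below it.

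Sox18, the SOX factor that acts upstream of Prox1 (chr2:181404541-181406345), had the highest mean level of the 9 factors in every group. Its FPKM was 178.6, 429.8 and 290.8 in control MLECs, 451, 474 and 566 in GL261 and 207.5, 555 and 737 in B16. B16 replicate 1 was the only tumor-associated library within the control range. The difference was 0.73 on the log2 scale (95% interval -0.10 to 1.55, adjusted p = 0.329, limma). Hhex, a homeobox factor (chr19:37507377-37515218), ranged from 9.96 to 68.8 FPKM in control and from 23.1 to 68.1 in tumor-associated libraries, with a difference of 0.05 (95% interval -1.29 to 1.39, adjusted p = 0.977). Tbx1, a T-box factor (chr16:18581806-18588113), had 43.5, 94.8 and 18.7 FPKM in control MLECs, 12.7, 6.31 and 36.9 in GL261 and 249.9, 28.5 and 9.22 in B16. B16 replicate 1 held both the highest Tbx1 value of all libraries and the lowest Sox18 value among the tumor-associated ones. The difference of Tbx1 was -0.77 (95% interval -2.84 to 1.30, adjusted p = 0.717), and the intervals of Hhex and Tbx1 include changes in either direction of more than 1 on the log2 scale.

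**Figure D2:**
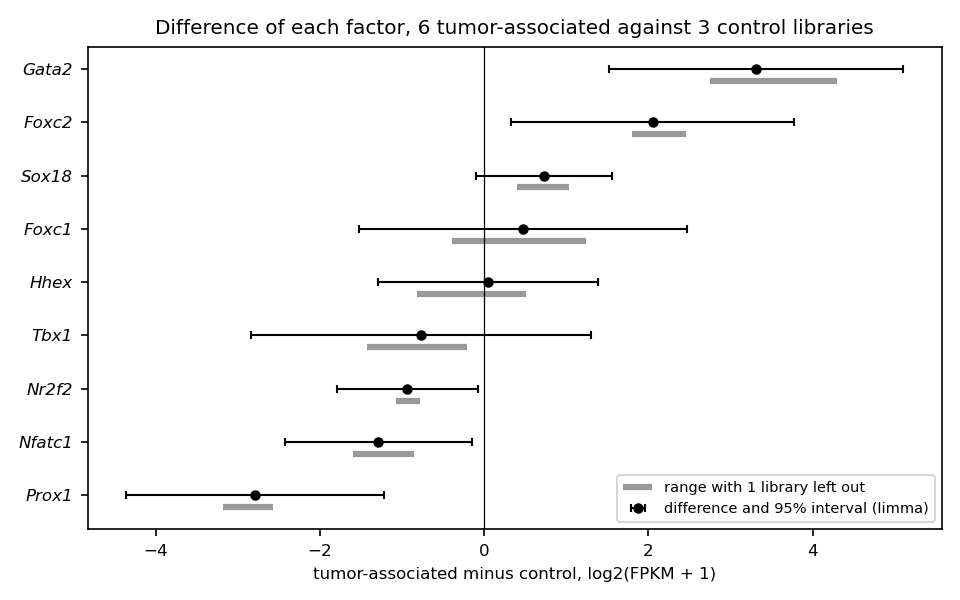
Difference of each factor between 6 tumor-associated and 3 control libraries on the log2(FPKM + 1) scale (points, with 95% intervals from limma) and the range of that difference when each library is left out in turn (grey bars). The intervals of Prox1, Nfatc1 and Nr2f2 lie below 0 and those of Gata2 and Foxc2 above it, and the grey bars of Foxc1 and Hhex cross 0.

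Gata2, the zinc finger factor needed for lymphatic valves (chr6:88143885-88157024), gave control values of 0.201, 7.44 and 0 FPKM. It had 13.0, 27.3 and 27.9 FPKM in GL261 and 9.24, 13.5 and 56.7 in B16. All tumor-associated libraries were above all control libraries, and control replicate 2 came closest to them. The control values rest on an estimated 1.01, 43.7 and 0 fragments, against 57.1 to 785 in tumor-associated libraries, and 3 fragments correspond to 0.511 to 0.814 FPKM in the control libraries (counting error only). The difference was 3.31 on the log2 scale with a standard error of 0.83 and an adjusted p of 0.0431 (limma). The call was kept without control replicate 2 (adjusted p = 0.00973) and without B16 replicate 1, and was lost without any one of the other 7 libraries (control 1 and 3, GL261 1, 2 and 3, B16 2 and 3), at adjusted p from 0.0640 to 0.125. The call held with a pseudocount of 0.1 (adjusted p = 0.0485) and among genes with a mean FPKM of at least 10 (0.0399). It was lost after rescaling (adjusted p = 0.0553), after quantile normalization (0.0668), without a trend (0.05004) and without the filter (0.0864). It was also lost with the number of genes above 0 as a covariate (difference 2.11, adjusted p = 0.595) and with aligned reads as a covariate (2.10, adjusted p = 0.636).

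**Figure D3:**
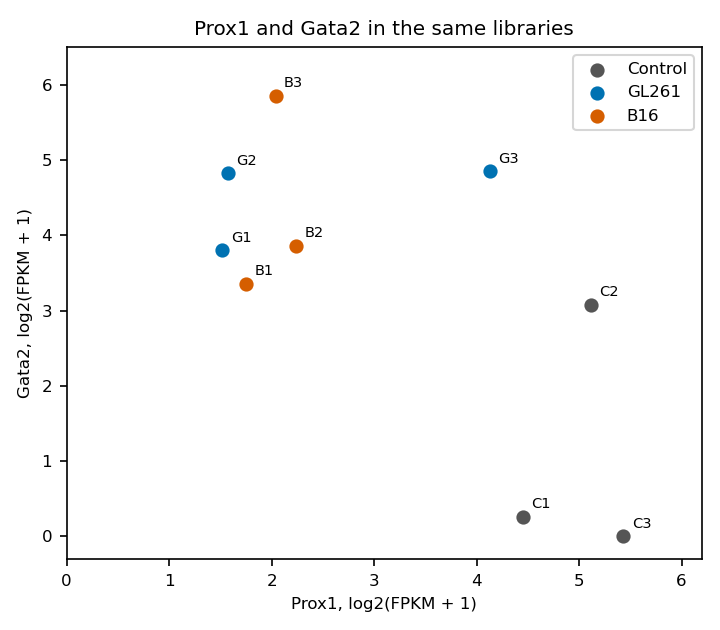
Prox1 and Gata2 in the same 9 libraries, both as log2(FPKM + 1), with 1 point per library in control (C), GL261 (G) and B16 (B). The 3 control libraries lie at high Prox1 and low Gata2, and GL261 replicate 3, with 16.5 FPKM of Prox1 and 27.9 FPKM of Gata2, lies to the right of the other tumor-associated libraries.

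Foxc2, a forkhead factor of lymphatic valves (chr8:123640071-123642792, 1 exon, within the annotated readthrough gene Gm20388), had a listed 0 for each of the 3 control libraries and for GL261 replicate 3. The other GL261 libraries had 1.53 and 1.99 FPKM, and the B16 libraries had 7.25, 7.43 and 8.67 FPKM. The B16 libraries stood above all others and close together. In the control libraries 3 fragments would correspond to 0.609 to 0.969 FPKM (counting error only). A level like that of B16 lay well above this, and a level near that of GL261 lay close to it. Tbp, at 9.06 to 16.7 FPKM in tumor-associated libraries, was nevertheless listed at 0 in control replicates 1 and 3. The listed 0 of Foxc2 in control libraries thus does not show that a level like that of B16 was lacking there. The B16 values rest on 37.6, 72.1 and 101 estimated fragments, and the GL261 values on 29.4, 41.0 and 0. Between B16 and control the fitted difference was 3.13 with a standard error of 0.71 and an adjusted p of 0.0457 (limma), and Foxc2 was the only factor called in this comparison, where 2.11% of all tested genes were called. With a control group at 0 the size depends on the pseudocount, and with a pseudocount of 0.1 the adjusted p was 0.0701. The call was lost in each of the 9 leave-one-out fits (adjusted p from 0.0556 to 0.126), with differences from 3.06 to 3.17. It was also lost without the filter (0.0703) and with the number of genes above 0 (2.50, adjusted p = 0.366) or aligned reads (2.45, adjusted p = 0.443) as a covariate. The call held in 3 of 17 alternative fits, among them rescaling (adjusted p = 0.0470) and quantile normalization (0.0410). For both tumors joined the difference was 2.05 (adjusted p = 0.185).

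Foxc1, the closest relative of Foxc2 among the factors (chr13:31898515-31902504, 1 exon), varied within every group. Its FPKM was 10.6, 3.59 and 0.219 in control MLECs, 17.1, 8.22 and 1.71 in GL261 and 4.54, 5.06 and 0.982 in B16. The value of control replicate 3 corresponds to an estimated 1.00 fragment. The groups overlapped, and the difference of 0.47 (95% interval -1.52 to 2.47, adjusted p = 0.832, limma) turned to -0.39 without control replicate 3.

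**Figure D4:**
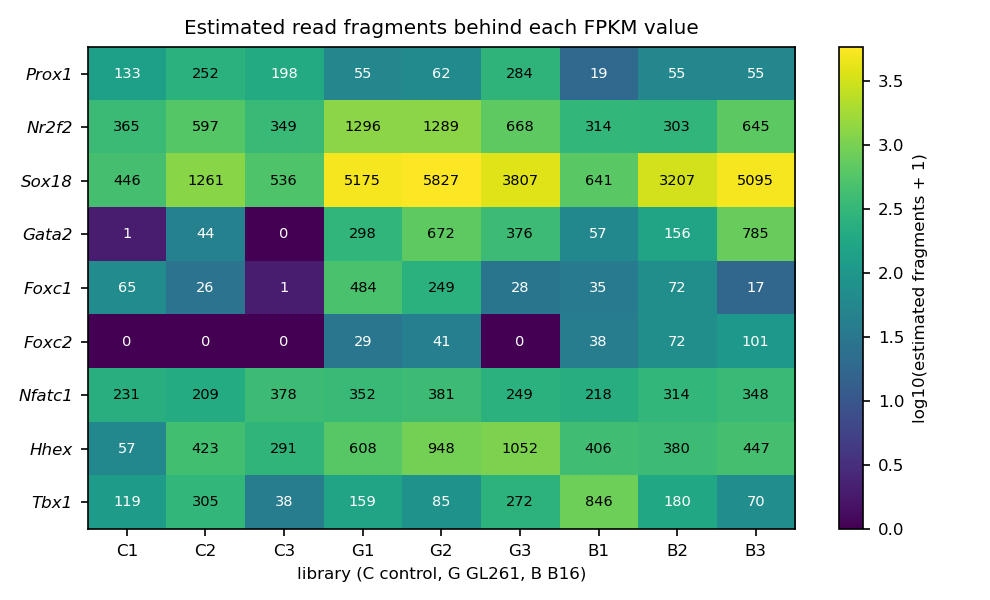
Estimated read fragments behind each FPKM value, for the 9 factors (rows) in the 9 libraries (columns), with color giving log10(fragments + 1). Control libraries hold 0 to 44 fragments of Gata2 and none of Foxc2, whereas Prox1 rests on 133 to 252 fragments in control and on fewer in 5 of 6 tumor-associated libraries.

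Nfatc1, the calcineurin-dependent factor of valve development, lies on chromosome 18 from 80802944 to 80909810 (minus strand, up to 10 exons). Its FPKM was 30.6, 23.6 and 67.9 in control MLECs, 10.2, 10.2 and 12.3 in GL261 and 23.3, 18.0 and 16.7 in B16. GL261 libraries were the lowest and close together, and B16 replicate 1 came within a small margin of control replicate 2. The difference was -1.29 for both tumors joined (standard error 0.53, adjusted p = 0.211, limma), -1.67 for GL261 (adjusted p = 0.166) and -0.90 for B16 (adjusted p = 0.514). It ranged from -1.60 to -0.85 for both tumors when 1 library was left out, and it was -0.58 and -0.13 with genes above 0 or aligned reads as a covariate. Of 9 other genes of the calcineurin-NFAT pathway 8 were tested, and 0 were called in either direction (limma), with a median difference of 0.30. Among them Calm2, a calmodulin gene, had 728 to 1131 FPKM in control and 573 to 778 in tumor-associated libraries (difference -0.35, adjusted p = 0.387), and Rcan1, a feedback inhibitor of calcineurin, had a difference of 0.50 (adjusted p = 0.684).

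For GL261 against control, 0 of the 9 factors were called against 3.49% of all tested genes, and 3 factors passed at an unadjusted p under 0.05, as did 1687 of the 9955 tested genes (limma). Gata2 was nearest, with 3.38 (adjusted p = 0.100), and passed without control replicate 2 (4.36, adjusted p = 0.0290). For B16 against control 4 factors passed at an unadjusted p under 0.05, as did 1493 of the 9955 tested genes, and Gata2, at 3.24 (adjusted p = 0.138), was also called without control replicate 2 (4.22, adjusted p = 0.0399). Between GL261 and B16, 0 of the 9 factors and 0.0100% of all tested genes were called. Foxc2 alone among the factors had an unadjusted p under 0.05 there, as did 548 of the 9955 tested genes. Its difference was -2.16, lower in GL261 (95% interval -3.71 to -0.61, adjusted p = 0.617, limma). For Prox1 the interval between GL261 and B16 ran from -1.49 to 2.28 and for Gata2 from -2.05 to 2.33, so that these libraries leave differences of either sign possible. Comparisons of each tumor with control used the same control libraries.

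By level in FPKM, the factors stood in the order Sox18, Nr2f2, Tbx1, Hhex, Nfatc1, Prox1, Foxc1, Gata2 and Foxc2 in control MLECs. Only the ranges of Sox18 and Nr2f2, and of Prox1 and Foxc1, did not overlap between neighbours in that order. In GL261 the order was Sox18, Hhex, Nr2f2, Gata2, Tbx1, Nfatc1, Foxc1, Prox1 and Foxc2, with neighbours apart at Sox18 and Hhex and at Nr2f2 and Gata2. In B16 it was Sox18, Tbx1, Hhex, Nr2f2, Gata2, Nfatc1, Foxc2, Foxc1 and Prox1, with neighbours apart at Nfatc1 and Foxc2 and at Foxc2 and Foxc1. Prox1 thus stood sixth among the factors in control MLECs and last in B16, where its 3 values (2.37 to 3.72 FPKM) overlapped those of Foxc1 (0.982 to 5.06 FPKM).

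Relatives of the factors were mostly too low to test, 8 of 19 having passed the filter. In tumor-associated MLECs 2 of these were called higher and 0 lower, against 2.90% and 1.02% of all tested genes. A difference above 0 was found for 5, with a median of 0.81, beside 0.20 for all tested genes. Nr2f6, an orphan receptor related to Nr2f2, had 0, 6.86 and 0 FPKM in control and 9.10 to 41.6 in tumor-associated libraries (difference 3.27, adjusted p = 0.0413, limma). Foxf1, a forkhead factor of vascular and mesenchymal development, had a listed 0 in each control library, against 2.36 to 16.4 FPKM elsewhere (adjusted p = 0.0375). Sox7, a relative of Sox18 in the same SOX group, had 36.0, 12.4 and 11.7 FPKM in control and 29.9 to 100.6 in tumor-associated MLECs (difference 1.77, adjusted p = 0.0741), while Sox17, also of that group, had a difference of 0.69 (adjusted p = 0.654). Foxo1 (-0.97, adjusted p = 0.440) and Nfat5 (-0.35, adjusted p = 0.807) were not called.

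Among 26 other regulators of Prox1 and of lymphatic fate 24 were tested. Between tumor-associated and control MLECs 1 was called lower and 0 higher, against 1.02% and 2.90% of all tested genes. A difference above 0 was found for 15, with a median of 0.38, beside 0.20 for all tested genes. Hoxd10, a homeobox factor of lymphatic endothelium, had 24.6, 34.2 and 11.8 FPKM in control MLECs, was listed at 0 in all GL261 libraries and had 5.14, 0.164 and 0 in B16 (difference -4.02, adjusted p = 0.0126, limma). Hoxd8, which acts upstream of Prox1, was 11.1, 77.4 and 36.7 FPKM in control MLECs and 0.185, 0.174 and 0 in GL261, where it was called lower (adjusted p = 0.0424), but 22.7, 5.50 and 0 in B16 (adjusted p = 0.317). Lmo2, a cofactor that bridges GATA and bHLH factors in endothelium, had 139 to 214 FPKM in control MLECs and 30.7, 19.9 and 0.717 in GL261, where it was called lower (-4.07, adjusted p = 0.0324). In B16 Lmo2 had 23.4 to 45.2 FPKM (-2.34, adjusted p = 0.248). Klf2 (0.63, adjusted p = 0.430) and Klf4 (-0.70, adjusted p = 0.336), both responsive to flow, Fli1 (1.24, adjusted p = 0.252) and Ctnnb1 (0.17, adjusted p = 0.841) were not called.

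Lymphatic specification effectors, several of them targets of PROX1, were described as a list of 19 genes, of which 16 were tested. In tumor-associated MLECs 5 were called lower and 1 higher, against 1.02% and 2.90% of all tested genes. A difference above 0 was found for 5, and the median difference of the list was -0.97, beside 0.20 for all tested genes. Flt4, which encodes VEGFR3, had 173.8, 204.5 and 219.8 FPKM in control MLECs, 40.1, 45.4 and 49.0 in GL261 and 106.3, 56.3 and 59.4 in B16 (difference -1.80, adjusted p = 0.0160, limma). For Flt4 all 6 tumor-associated libraries lay below every control library. Mmrn1, a multimerin of lymphatic endothelium, fell by 2.56 on the log2 scale (adjusted p = 0.00543) and was also called in GL261 and in B16. Reln fell by 2.35 on that scale (adjusted p = 0.0335), Stab2, a scavenger receptor, fell by 3.04 (adjusted p = 0.0461), and Ccl21c, a copy of the chemokine gene Ccl21, fell by 3.32 (adjusted p = 0.0320). Reads of the near-identical Ccl21 copies may have been divided among them by the authors' estimation, and Ccl21b was not called (-5.48, adjusted p = 0.0651). Clec14a, an endothelial C-type lectin, rose by 3.64 (adjusted p = 0.0227). Lyve1, whose product is the sorting marker named in the labels, had 974 to 1705 FPKM in control and 628 to 1895 in tumor-associated MLECs (-0.36, adjusted p = 0.629), and Pdpn, whose product is the marker named in the results text of the study, had a difference of -1.48 (adjusted p = 0.235).

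**Figure D5:**
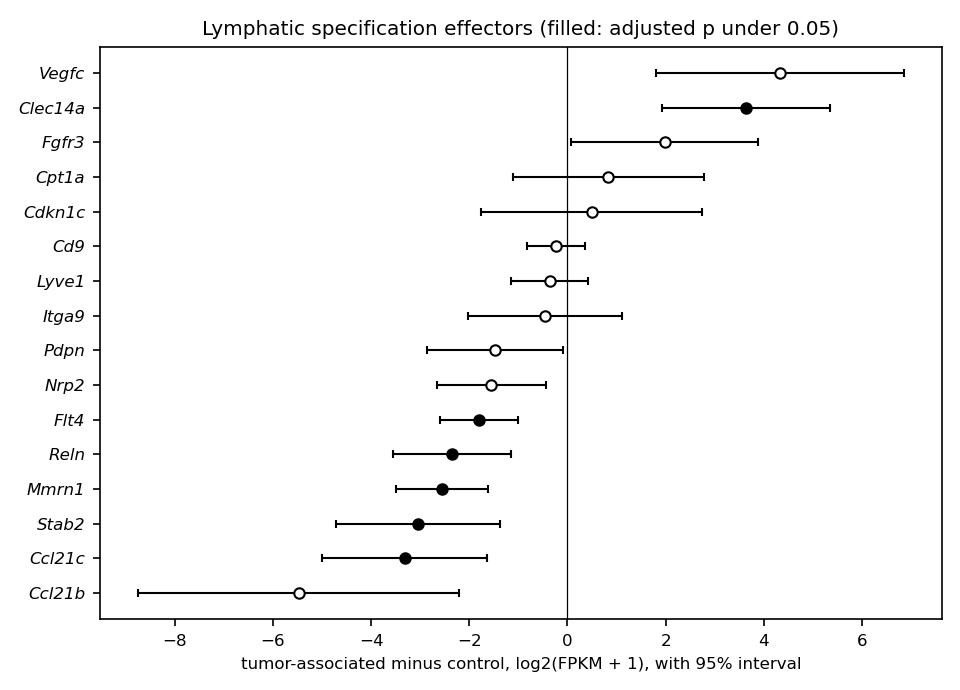
Difference between tumor-associated and control MLECs for the 16 tested lymphatic specification effectors on the log2(FPKM + 1) scale, with 95% intervals from limma and filled points for an adjusted p under 0.05. Flt4, Reln, Mmrn1, Stab2 and Ccl21c are filled to the left of 0 and Clec14a to the right.

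Lymphatic valve effectors, which act with GATA2, FOXC2 and NFATC1, numbered 24 with 21 tested. In tumor-associated MLECs 3 were called higher and 0 lower, against 2.90% and 1.02% of all tested genes. A difference above 0 was found for 12, with a median of 0.33, beside 0.20 for all tested genes. Nrp1, a semaphorin and VEGF receptor that blood endothelium also carries, had 0.106, 0.819 and 0 FPKM in control and 6.85 to 39.5 in tumor-associated libraries (3.91, adjusted p = 0.0106, limma) and was called in each tumor. Dchs1, an atypical cadherin, had a listed 0 in each control library, against 2.72 to 12.5 FPKM elsewhere (adjusted p = 0.0288). Selp, which encodes P-selectin, had 0.945, 34.7 and 1.54 FPKM in control and 24.1 to 81.6 in tumor-associated MLECs (3.22, adjusted p = 0.0443). Gja1 (-0.25, adjusted p = 0.816), Angpt2 (-1.13, adjusted p = 0.268), Itgb1 (0.73, adjusted p = 0.224) and Fn1 (-0.29, adjusted p = 0.880) were not called. These lists were judged by their counts alone, and the summed blood endothelial markers given above were higher in the same libraries.

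The genes most like each factor were found by Pearson correlation of log2(FPKM + 1) over the 9 libraries, which share group and depth, for the 7 factors above 0 in all libraries. Prox1 was most like Dock9 (r = 0.94), Tbc1d4 (0.94) and Gm525 (0.94), and Nr2f2 was most like Zfp521 (0.98), Zfp386 (0.96) and Nrp2 (0.95), the VEGF-C coreceptor. Nfatc1 was nearest to Phc3 (0.96), Gpsm3 (0.95) and D930016D06Rik (0.94), Sox18 to Nme3 (0.95), Ppp2r3a (0.95) and Zfp69 (0.94), and Hhex to 2510009E07Rik (0.97), Fads1 (0.96) and Pcmtd2 (0.95). Foxc1 was nearest to Alg11 (0.91), Chchd1 (0.90) and Kpna1 (0.90). Tbx1 had the weakest neighbours, Prkcd (0.86), Zdhhc17 (0.86) and Xndc1 (0.86). These are the highest of many correlations and are given as a description.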

How the data were processed

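The authors trimmed the reads, aligned them to mm9 with TopHat2 2.0.12 and deposited FPKM per gene and library from Cufflinks 2.2.1 (tools per the submitters' processing notes); the annotation is not given in the sources used here. FPKM were not scaled further between libraries and hold no counts, so a count test was not used. Depth was estimated from the FPKM worth of 1 fragment over 3513 genes with a single transcript of at least 2 kb (GENCODE M1), where 85.0 to 90.9% of low values lay within 0.2 of a whole number. Fragments of a factor assume its longest transcript.

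limma 3.58.1 (R 4.3.3, eBayes with a trend) was run on log2(FPKM + 1), a scale that understates changes of low genes, for genes with FPKM of 1 or more in 3 or more libraries. A fit with both tumors joined and a fit with 3 groups used all 9 libraries, and groups came from the labels. The exact permutation test planned for factors that miss the filter was not needed. limma was tested on simulated data. Figures used Python 3.11.15, numpy 2.4.6, pandas 2.3.3 and matplotlib 3.10.9. Members and gene lists were chosen with earlier results of these data known. Named are the 9 factors, list genes called in any comparison with up to 4 others of highest mean FPKM, and the 3 nearest genes per factor; of the marker lists only values that bear on the factors are given. 1 valve effector named by this rule is not reported here. The alternatives were a pseudocount of 0.1, no filter, a mean FPKM of at least 10, rescaling to a sum of 1000000, quantile normalization, no trend, the replicate number as a block, genes above 0 or aligned reads (listed by the study) as a covariate, and leaving out each library.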

Additional observations from a re-analysis of the deposited data

Results flagged for a closer look

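Among the 6 tumor-associated libraries, 3 factors had a library far from the others, by a gap to the nearest library, divided by the whole range, above Dixon's critical value. Prox1 in GL261 replicate 3 was 16.5 FPKM with the nearest library at 3.72 (gap over range 0.8738, and 0.7249 on the log2(FPKM + 1) scale). Nr2f2 in B16 replicate 2 was 20.2 FPKM with the nearest at 35.8 (0.6755, and 0.7488 on the log2 scale). Tbx1 in B16 replicate 1 was 249.9 FPKM with the nearest at 36.9 (0.8745), and was not far from the others on the log2 scale. Chance marks about 1 in 20 groups in this way, and the 6 libraries join both tumors.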

How the results depend on the processing

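Prox1, Nr2f2, Nfatc1 and Gata2 kept the direction of their difference between tumor-associated and control MLECs under all alternatives run. The count of genes called in that comparison (391) became 254 without the filter on low genes, 13 with the number of genes above 0 as a covariate and 9 with aligned reads as a covariate. Since every control library was shallower than every tumor-associated library, the covariates overlap with the groups. For GL261 the 347 genes became 218, 6 and 2 in the same order, and 230 with the replicate block. For B16 the 210 genes became 135, 17 and 5. Between GL261 and B16 the 1 gene became 2 after quantile normalization and 6 without a trend. The 1 factor called between tumor-associated and control became 0 without the filter, with the replicate block and with either covariate, and 2 with a mean FPKM of at least 10. The 1 factor called in B16 became 0 in those same fits, with a mean FPKM of at least 10 (which drops Foxc2), and with a pseudocount of 0.1. Leaving out 1 library gave 238 to 449 genes called for both tumors, 115 to 368 for GL261, 72 to 279 for B16 and 1 to 4 between tumors, and 0 to 1 factors called in each comparison with control. The factors not overlapping numbered 4 to 5, and those over the ROC power 6 to 8. Directions that reversed were those of Hhex (-0.17 rescaled, -0.0082 after quantile normalization, -0.070 with genes above 0, down to -0.82 without control replicate 1), Sox18 (-0.040 with genes above 0, -0.024 with aligned reads), Foxc1 (-0.037 and -1.01, and -0.39 without control replicate 3), Tbx1 (1.65 and 2.12) and Foxc2 in GL261 (-0.18 and -0.32). Leaving out libraries gave Hhex -0.82 to 0.52 and Foxc1 -0.39 to 1.24. The cause of these changes was not tested. Same-numbered libraries correlated at -0.033 to 0.044 and do not pair; with the replicate block Gata2 had an adjusted p of 0.0543 and Foxc2 in B16 0.0950 (limma). In control libraries the estimated fragments were 0 for Foxc2, 0 to 43.7 for Gata2 and 1.00 to 65.4 for Foxc1. The part of depth in these values was not tested.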
